A study of Mus musculus with 6 samples.

Results

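The genes described here encode enzymes that cut proteins outside the cell or in lysosomes, and the inhibitors that hold those enzymes in check. They were taken by symbol: the matrix metalloproteinases (Mmp), their tissue inhibitors (Timp), the ADAM and ADAMTS metalloproteinases, the cathepsins (Cts plus 1 letter), the serpins, and the plasminogen activators Plat and Plau with the receptor Plaur. The rule found 94 probe sets of 72 genes among 10833 probe sets annotated to 1 gene (8251 genes), and it used no measured value. A further 6 probe sets with a matching symbol name several genes and were left out. RNA came from thoracic mammary glands of virgin mice, 16 weeks old, of an F1 CF-1/FVB background. The 2 groups were wild type mice and mice with a transgene that overexpresses luteinizing hormone (LH), which the pituitary releases to drive steroid synthesis in the gonads, and the labels name the transgene only as LH-overexpressing. Each group held 3 pools of RNA from 3 mice, 1 array per pool, so 18 mice in all, and RNA was pooled before cDNA synthesis, so single mice cannot be seen.

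Mammary tissue is rebuilt by proteases. Matrix metalloproteinases and plasmin open the stroma and release growth factors when ducts branch and alveoli form, TIMPs and serpins bind and block them, and ADAMs cut receptors and ligands off the cell surface. Cathepsins digest proteins in lysosomes and, in macrophages and other antigen-presenting cells, process antigens. In bulk tissue, fewer cells of a type and less RNA per cell cannot be told apart.

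The measure is the MAS5 signal of a probe set, in arbitrary units on a linear scale, given as mean ± SD over the 3 pools of a group. A log2 difference is the LH transgenic mean minus the wild type mean after adding 79.7 to each signal, which understates the change of dim probe sets. A probe set was tested with limma when its mean over the 6 arrays reached 336.0, and counts as called when its p, adjusted by Benjamini-Hochberg over all 7453 probe sets tested, was under 0.05. Of the 94 member probe sets 48 passed this filter, covering 40 genes, and 46 did not, leaving 32 genes untested. No signal of an untested member was above 445.8. The median of the deposited signal was 540.6 to 583.4 per array, and no value in the table was 0. All 15 milk and alveolar genes listed as a check of the tissue were bright enough to be tested.

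The promoters of 2 families are shown first, because members that lie side by side or share a lysosomal role had different calls. RefSeq (GRCm38.p6) gave the 250 bases before a start site for 49 of the 72 genes. The AP-1 site, searched on both strands as TGANTCA, was in 5 of 11 windows of the matrix metalloproteinases (5 of 9 genes), in 0 of 10 of the cathepsins and in 6.75% of all 32851 windows. It was also in 5 of 21 serpin windows, 1 of 10 ADAM and ADAMTS windows, the 1 window of Plaur and 0 of 3 TIMP windows. The matrix metalloproteinase genes with it, Mmp3, Mmp7, Mmp10, Mmp12 and Mmp13, all lie in one cluster on chromosome 9. Shown here are 3 genes of that cluster, with the AP-1 letters in capitals:
Mmp13, chr9:7272264-7272513, plus strand: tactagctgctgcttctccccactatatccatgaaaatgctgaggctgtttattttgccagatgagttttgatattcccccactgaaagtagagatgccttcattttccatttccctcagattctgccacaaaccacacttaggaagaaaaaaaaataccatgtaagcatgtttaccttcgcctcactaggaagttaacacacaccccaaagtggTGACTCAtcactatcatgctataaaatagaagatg
Mmp12, chr9:7347124-7347373, plus strand: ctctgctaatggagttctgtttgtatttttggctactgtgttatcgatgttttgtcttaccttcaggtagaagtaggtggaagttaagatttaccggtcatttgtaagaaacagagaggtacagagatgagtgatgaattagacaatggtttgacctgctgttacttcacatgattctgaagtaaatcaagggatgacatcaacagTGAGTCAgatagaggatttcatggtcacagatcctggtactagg
Mmp3, chr9:7445572-7445821, plus strand: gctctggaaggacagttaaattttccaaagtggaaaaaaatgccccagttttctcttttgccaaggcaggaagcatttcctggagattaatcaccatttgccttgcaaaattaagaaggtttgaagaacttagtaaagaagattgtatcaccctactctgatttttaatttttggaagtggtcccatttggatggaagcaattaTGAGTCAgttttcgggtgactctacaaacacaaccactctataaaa
The site starts 35, 44 and 46 bases before the start that each window shown for Mmp13, Mmp12 and Mmp3 belongs to. Mmp12 has a further listed start, upstream of the one shown, whose window (chr9:7344147-7344396) holds no such site. Only Mmp12 of these 3 was called, as described below, while Mmp3 was not and Mmp13 was too dim to be tested.

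The E-box CACGTG, which reads the same on both strands, was in 4 of 10 cathepsin windows (Ctsa, Ctsd, Ctsf and Ctsl), in 0 of 21 serpin windows and in 6.02% of all windows. It was also in 2 of 10 ADAM and ADAMTS windows, 1 of 11 matrix metalloproteinase windows and 0 of 3 TIMP windows. The windows of 3 cathepsins are shown to set one that fell, one that was not called and one that rose next to each other, with the E-box in capitals:
Ctsd, chr7:142387828-142388077, minus strand: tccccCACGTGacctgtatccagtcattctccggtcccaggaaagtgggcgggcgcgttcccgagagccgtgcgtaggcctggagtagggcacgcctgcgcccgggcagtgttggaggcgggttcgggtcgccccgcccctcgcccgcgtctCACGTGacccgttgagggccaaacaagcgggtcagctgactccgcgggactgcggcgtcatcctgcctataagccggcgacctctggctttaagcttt
Ctsf, chr19:4854915-4855164, plus strand: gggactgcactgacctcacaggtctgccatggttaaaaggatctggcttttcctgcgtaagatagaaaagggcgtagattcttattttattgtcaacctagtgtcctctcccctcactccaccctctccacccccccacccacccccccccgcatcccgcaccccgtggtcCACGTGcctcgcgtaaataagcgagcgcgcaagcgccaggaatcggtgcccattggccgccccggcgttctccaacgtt
Ctss, chr3:95526536-95526785, plus strand: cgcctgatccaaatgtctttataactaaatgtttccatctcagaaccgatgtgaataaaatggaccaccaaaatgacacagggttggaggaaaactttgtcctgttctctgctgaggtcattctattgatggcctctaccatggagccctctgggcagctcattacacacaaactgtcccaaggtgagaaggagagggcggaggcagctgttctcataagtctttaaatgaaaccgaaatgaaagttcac
Ctsd holds the letters at 245 and 98 bases before the start and Ctsf at 79, and Ctss has none. No window printed here holds both motifs. Ctsf fell, Ctsd was not called and Ctss rose. A match of letters is a description of the sequence and not of binding.

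Of the 48 tested member probe sets, 8 were higher and 12 lower in LH transgenic glands. That is 41.7% called against 21.3% of all 7453 probe sets, with 16.7% against 10.5% higher and 25.0% against 10.8% lower. By gene, Mmp12, Ctse, Ctss, Ctsh, Adam8, Adam5 and Serpinf2 rose, and Mmp14, Timp3, Plat, Ctsf, Adam12, Adam15, Adam19, Serpina3n, Serpinb6a, Serpinb9, Serpinf1 and Serpinh1 fell. The enzymes were called in both directions, 7 probe sets higher and 6 lower of 32, whereas the TIMPs and serpins had 1 higher and 6 lower of 16. The difference between these 2 splits was not tested. The median log2 difference was -0.13 over the 48 member probe sets and 0.02 over all tested. For 26 members (54.2%, against 40.4% of all tested) every pool of one group was above every pool of the other. The LH transgenic pools were above in 9 (18.8%, against 20.6%) and below in 17 (35.4%, against 19.8%). A call with a log2 difference of at least 1 in either direction was seen for 7 members (14.6%, against 6.71% of all tested). Adam8 and Adam12 are in these counts, though each passed the filter only through the group in which it was higher.

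**Figure D1:**
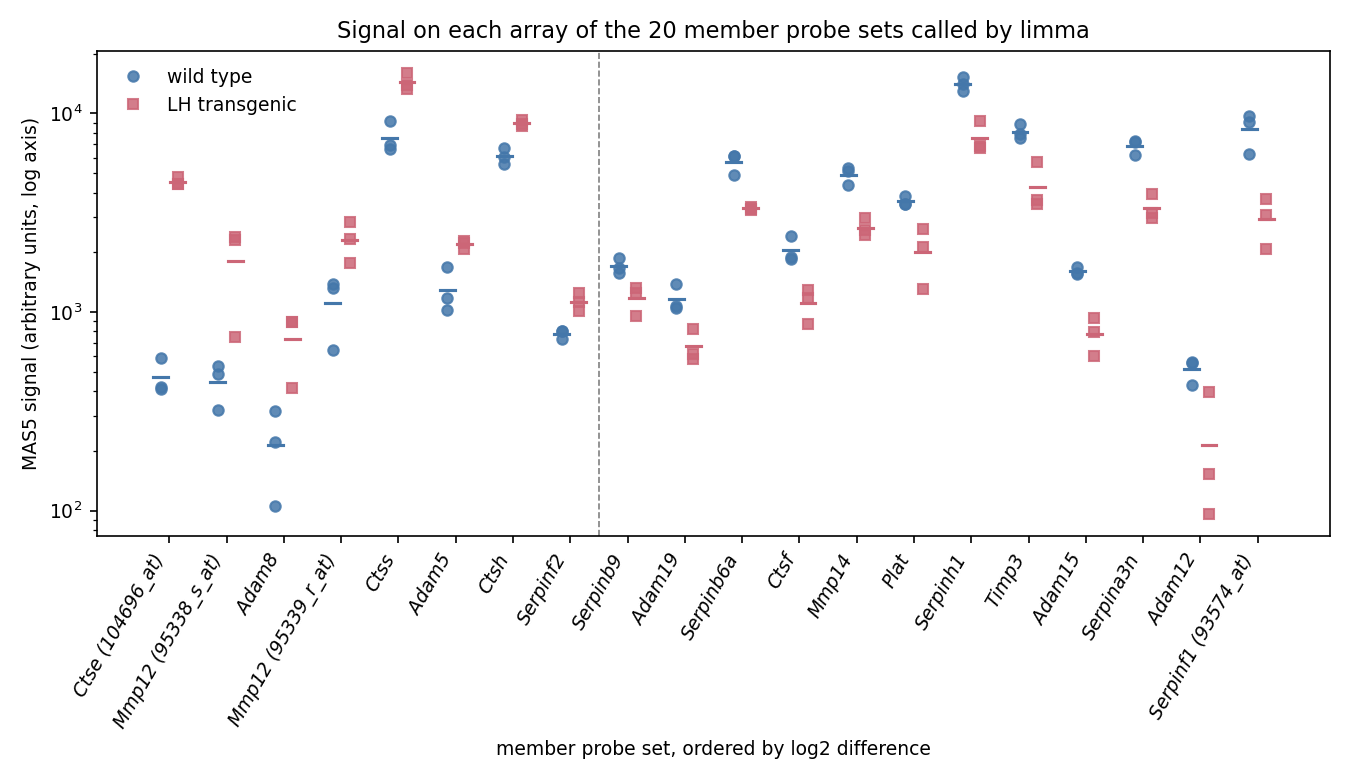
Signal of the 20 called member probe sets on each array (log axis), wild type as circles and LH transgenic as squares, with a bar at each group mean. The 8 probe sets left of the dashed line were higher and the 12 to its right lower in LH transgenic glands. The groups overlap for none of the 20, which were picked by calls made on these same values.

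The members called higher depend on the scale. Dividing each array by its 9 bacterial hybridisation control probe sets, which are spiked into the cocktail, moved the median of all probe sets from 0.02 to -0.62. On that scale 3 members were called higher and 30 lower, and over all probe sets 140 were higher and 3859 lower. Ctse, Adam8 and the probe set 95338_s_at of Mmp12 remained called higher, with differences of 2.44, 0.91 and 1.09. Ctss (0.25), Adam5 (0.09) and the second Mmp12 probe set (0.39) lost their calls there, and Ctsh (-0.14) and Serpinf2 (-0.15) turned below 0 without a call. All 12 lower calls held, but a scale that moves differences down could hardly take a lower call away. Measured from the shifted median they lay between -1.54 (Serpinf1) and -0.54 (Serpinb9), against -1.49 and -0.51 as deposited. Relative to the shifted median, Ctsh and Serpinf2 lay at 0.48 and 0.47, close to their differences of 0.55 and 0.49 as deposited.

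**Figure D2:**
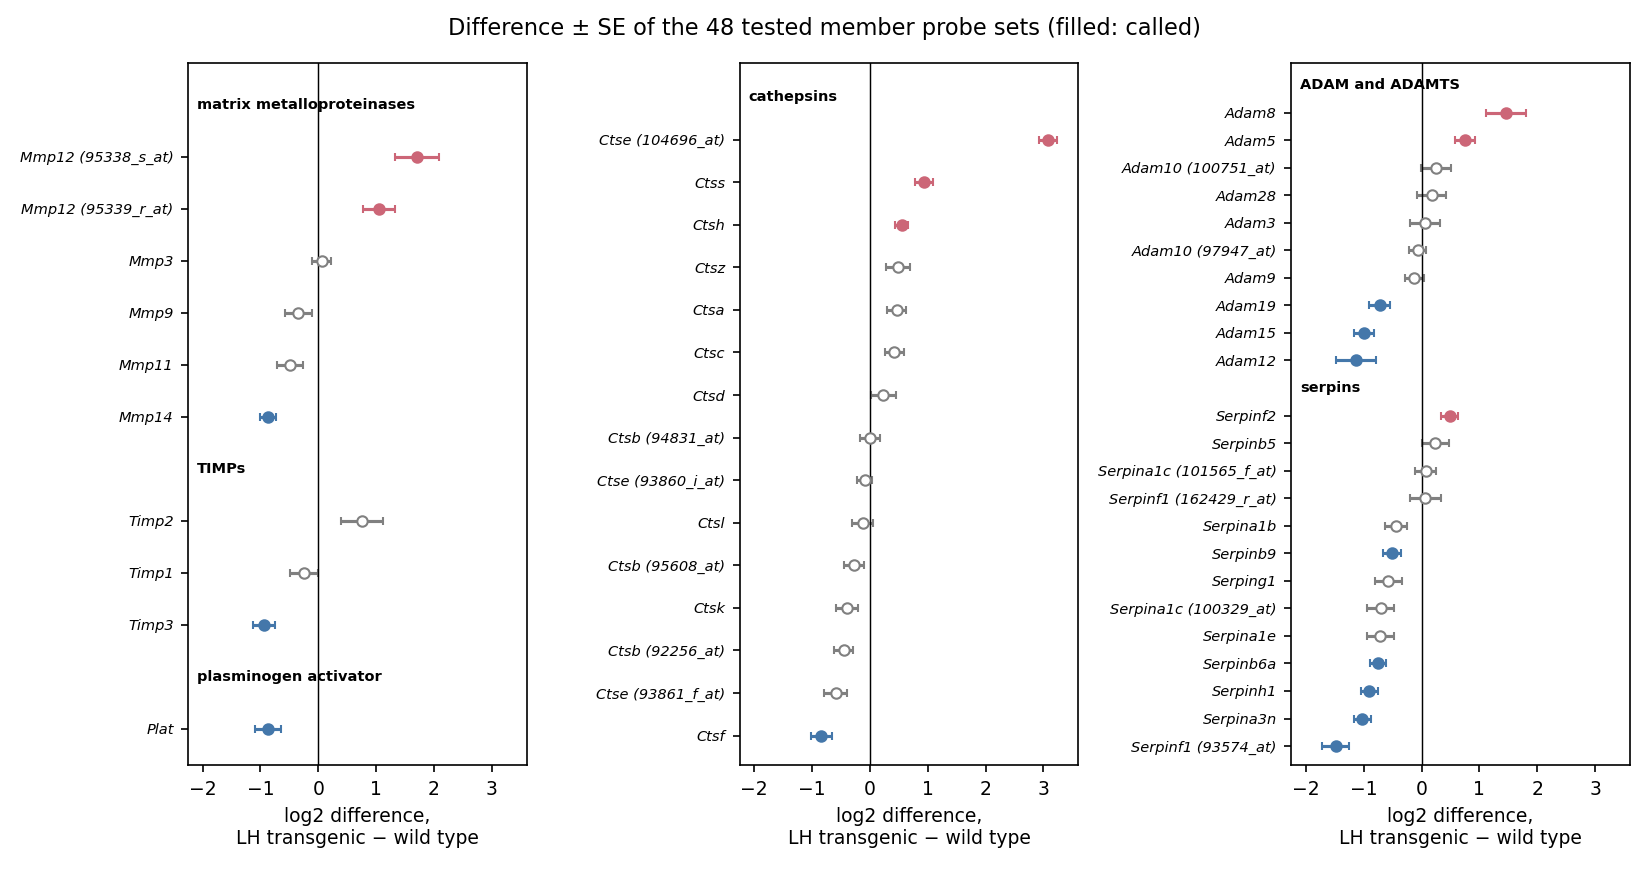
Log2 difference (LH transgenic minus wild type) with its SE for each of the 48 tested member probe sets, by family, filled where called. Differences run from -1.49 for Serpinf1 to 3.07 for Ctse, and the serpins lie mostly to the left of 0.

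Among the secreted and membrane matrix metalloproteinases, Mmp12 rose and Mmp14 fell, and 3 further tested genes were not called. Mmp12 is the elastase of macrophages. Its probe set 95338_s_at read 486.6, 532.9 and 321.8 in wild type pools 1, 2 and 3, and 2311.3, 2379.5 and 745.8 in LH transgenic pools 1, 2 and 3. All LH transgenic pools were above all wild type pools, and pool 3 of the transgenic mice was well below the other 2. The mean rose from 447.1 ± 111.0 to 1812 ± 924, a 4.05-fold increase (log2 1.71, SE 0.38, limma adjusted p 0.0127). A second Mmp12 probe set, 95339_r_at, gave 1316, 1385 and 645.7 in wild type and 1763, 2339 and 2849 in LH transgenic pools (log2 1.05, SE 0.28, adjusted p 0.0247). Here LH transgenic pool 3 was the highest, so that the 2 probe sets of one gene order the transgenic pools differently. Leaving out single pools took the first call away when wild type pool 3 (log2 1.52, adjusted p 0.0538) or, in turn, LH transgenic pool 1 (1.46, 0.0545) was dropped. The second was lost without wild type pool 3 (0.72, 0.0578), LH transgenic pool 2 (1.03, 0.0617) or LH transgenic pool 3 (0.89, 0.0683).

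Mmp14, the membrane-anchored enzyme that activates pro-Mmp2 and cuts fibrillar collagen, fell. Its signal was 4354, 5133 and 5291 in wild type and 2588, 2966 and 2443 in LH transgenic pools. The groups were far apart compared with the spread within them, with means of 4926 ± 502 and 2666 ± 270 (1.85-fold lower, log2 -0.87, SE 0.14, limma adjusted p 0.00271). This call held when any single pool was left out. Mmp3, the stromelysin made by mammary stroma, read 3525, 4567 and 3925 in wild type and 3404, 4217 and 4973 in LH transgenic pools, and the LH transgenic pools lay below, among and above the wild type pools (log2 0.06, SE 0.17, adjusted p 0.843). Mmp11, another stromelysin, had means of 581.6 ± 141.5 and 388.1 ± 69.0 (log2 -0.49, adjusted p 0.153). The gelatinase gene Mmp9 had 599.2 ± 187.4 and 445.6 ± 80.5 with one probe set (log2 -0.35, adjusted p 0.327), and its other was too dim to be tested. The second gelatinase, Mmp2, had 2 probe sets that stayed at or below 139.6 on every array, so this array says little about it.

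**Figure D3:**
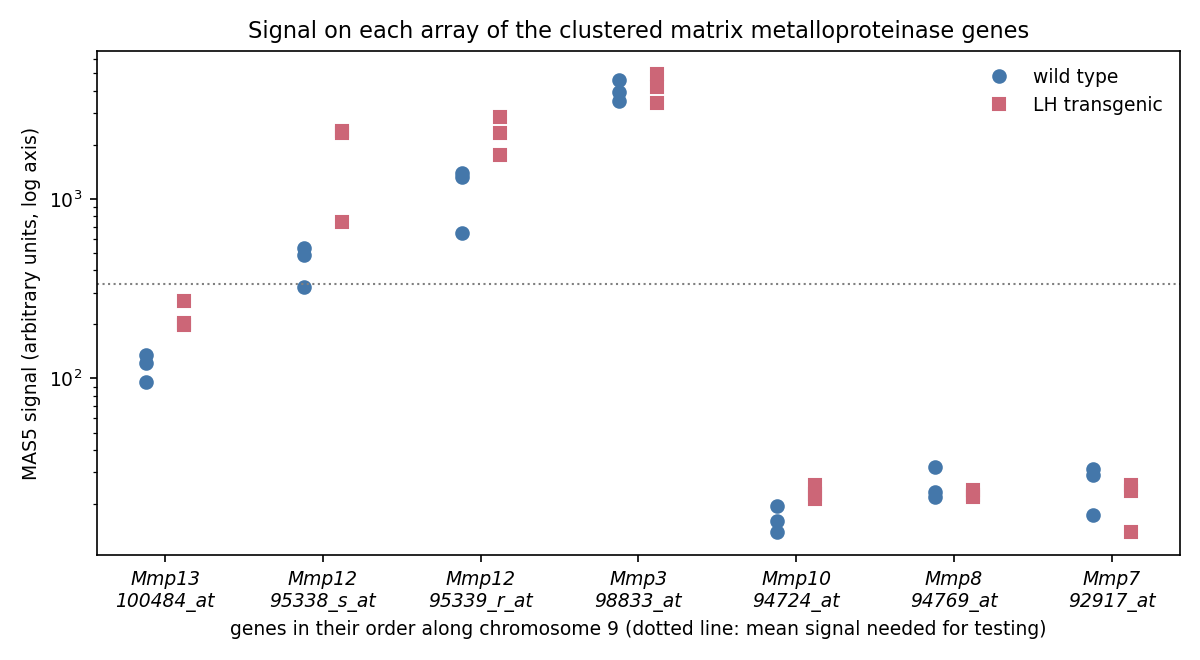
Signal on each array (log axis) for 7 probe sets of 6 matrix metalloproteinase genes in their order along chromosome 9, wild type as circles and LH transgenic as squares. Both Mmp12 probe sets separate the groups, Mmp3 does not, and Mmp13, Mmp10, Mmp8 and Mmp7 lie below the dotted line at 336.0 and were not tested.

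Mmp13 is the gene next to Mmp12 in the order of protein-coding genes, and 1 such gene lies between Mmp12 and Mmp3. The collagenase gene Mmp13 read 135.2, 121.6 and 96.0 in wild type and 268.8, 202.4 and 197.5 in LH transgenic pools, below the level at which probe sets were tested. Mmp10, Mmp8 and Mmp7 did not exceed 32.3 on any array.

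Of the 3 TIMP genes measured, Timp3 fell and the others were not called. Timp3 binds to the matrix and also blocks ADAM17. It read 7568, 7923 and 8815 in wild type and 3677, 3492 and 5692 in LH transgenic pools. LH transgenic pool 3 was the highest of its group and still below every wild type pool (8102 ± 643 against 4287 ± 1220, 1.89-fold lower, log2 -0.94, SE 0.18, limma adjusted p 0.00713). Timp1, the soluble inhibitor of most MMPs, read 3411, 3085 and 3768 in wild type pools, while LH transgenic pools 1 and 3 had 2312 and 2281 and pool 2 had 4424. Pool 2 was thus above all wild type pools and the other 2 below them (log2 -0.25, SE 0.24, adjusted p 0.503). Without LH transgenic pool 2 Timp1 was called lower (-0.56, adjusted p 0.0326). Timp2, which inhibits Mmp2 and also takes part in its activation by Mmp14, had 800.3, 2141 and 742.8 in wild type and 2589, 1370 and 1925 in LH transgenic pools. Wild type pool 2 stood apart from the other wild type pools, and without it Timp2 was called higher (1.22, adjusted p 0.0121) where all pools gave 0.76 (adjusted p 0.173). The other 2 Timp2 probe sets and the second of Timp1 were too dim to be tested.

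Of the plasminogen activators and their receptor, only Plat could be tested. Plat, tissue plasminogen activator, made largely by endothelium, fell from 3625 ± 195 to 2015 ± 661 (1.80-fold lower, log2 -0.87, SE 0.22, limma adjusted p 0.0203). The wild type pools lay close together at 3507, 3851 and 3518, and the LH transgenic pools spread over 2122, 1308 and 2616 without reaching them. Its call was lost without wild type pool 1, 2 or 3 (log2 -0.90, -0.83 and -0.90, adjusted p 0.0548, 0.0603 and 0.0592). Plau, urokinase, read 177.6, 132.3 and 158.9 in wild type and 195.2, 239.1 and 231.8 in LH transgenic pools and was too dim to be tested. Its receptor gene Plaur was dim as well, with 58.1 to 263.2 in LH transgenic and 86.9 to 295.4 in wild type pools. Endothelial markers were lower in the same comparison, 8 of 10 tested genes, and the summed signal of the 10 measured genes was 38525 to 45476 in wild type and 17740 to 20898 in LH transgenic pools. Their part in the result for Plat was not tested.

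Of 11 tested cathepsin genes, Ctse, Ctss and Ctsh rose, Ctsf fell and 7 were not called. By probe set 4 of 15 were called, a share of 26.7% that lay near the 21.3% of all tested. Of the 15, 3 were higher and 1 lower, where 10.5% of all tested were higher and 10.8% lower. Ctse, an aspartic protease of the endosome, had the largest difference of any tested member. One probe set, 104696_at, read 419.5, 586.8 and 408.5 in wild type and 4398, 4395 and 4762 in LH transgenic pools. The LH transgenic pools lay within a narrow range and the change was 9.58-fold (log2 3.07, SE 0.16, limma adjusted p 2.04e-05). The other 2 probe sets annotated to Ctse did not follow. The probe set 93860_i_at gave 1663, 1642 and 1682 in wild type and 1417, 1549 and 1722 in LH transgenic pools (log2 -0.09, SE 0.13, adjusted p 0.679). The probe set 93861_f_at, whose suffix marks probes shared within a sequence family, gave 2518, 2688 and 1995 against 1188, 1573 and 1985 (log2 -0.60, adjusted p 0.0579), and was called lower without LH transgenic pool 3 (-0.77, adjusted p 0.019). The annotation lists one source sequence for these 2 and another for 104696_at, so the rise of Ctse rests on 1 of 3 probe sets.

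Ctss, the cysteine protease that trims the class II invariant chain in antigen-presenting cells, read 6617, 9119 and 6911 in wild type and 16025, 13913 and 13304 in LH transgenic pools. The groups were clearly apart (1.91-fold, log2 0.94, SE 0.15, limma adjusted p 0.00284). Ctsh, a lysosomal aminopeptidase, rose from 6102 ± 567 to 8924 ± 278 (log2 0.55, SE 0.12, adjusted p 0.0115), a call lost without wild type pool 1 (0.48, adjusted p 0.0545) and, as said, with a difference below 0 on the scale of the bacterial controls. Ctsf, a further lysosomal cysteine protease, went the other way, with 1900, 2421 and 1845 in wild type against 1183, 1293 and 873.0 in LH transgenic pools (1.84-fold lower, log2 -0.84, SE 0.18, adjusted p 0.0102). Ctsk, the collagenolytic enzyme of osteoclasts, lies directly next to Ctss in gene order and had 1850 ± 303 and 1397 ± 320 (log2 -0.40, adjusted p 0.18).

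The general lysosomal cathepsins were not called. Ctsd, the main aspartic protease of lysosomes, read 17262, 22300 and 20825 in wild type and 24189, 32341 and 16591 in LH transgenic pools, where pool 3 was the lowest of all 6 (log2 0.23, SE 0.22, adjusted p 0.496). Ctsb, a cysteine protease, had 3 tested probe sets with differences of 0.00 (94831_at), -0.45 (92256_at) and -0.27 (95608_at), none called (adjusted p 0.997, 0.0744 and 0.299). Every LH transgenic pool was below every wild type pool for 92256_at and, narrowly (1716.5 against 1717.0), for 95608_at. Ctsl had 11432 ± 1933 and 10522 ± 2244 (log2 -0.13, adjusted p 0.66). Ctsa (0.46, adjusted p 0.0657), Ctsz (0.49, 0.121) and Ctsc (0.42, 0.109) were not called either, though Ctsa was called higher after quantile normalization (0.49) and its groups did not overlap. Ctsg, of neutrophil granules, and Ctsw, a cathepsin of lymphocytes, were dim, at or below 193.9, and were not tested. The Ctsw pools did not overlap, with 44.4 to 96.0 in wild type and 103.6 to 193.9 in LH transgenic pools.

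Some macrophage markers were higher in the comparison that raised Ctss, Ctsh and Mmp12. Of 11 tested genes 4 rose (Lyz2, Mpeg1, C1qa and Cd14) and 7 were not called, among them the receptor gene Csf1r with means of 4025 and 4234. Summed over 12 measured genes the signal was 43176 to 56982 in wild type and 70902 to 85923 in LH transgenic pools, with no marker at 0. Milk and alveolar genes rose in 12 of 15, and 4 of 12 luminal markers rose and 2 fell. Their part in the results for the cathepsins and Mmp12 was not tested.

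ADAMs were called in both directions. Adam8, found on granulocytes and macrophages, read 222.8, 316.1 and 105.6 in wild type and 887.9, 887.1 and 413.0 in LH transgenic pools. The lowest LH transgenic pool was above the highest wild type pool (3.39-fold, log2 1.46, SE 0.35, limma adjusted p 0.0162). The call was lost without wild type pool 3 (1.16, adjusted p 0.056), LH transgenic pool 1 (1.30, 0.0664) or LH transgenic pool 2 (1.30, 0.0581). Neutrophil markers summed to 20330 to 41444 in wild type and 35890 to 68156 in LH transgenic pools over 8 genes, of which 1 of 5 tested rose, and LH transgenic pool 3 was the lowest of its group there as for Adam8. Their part was not tested. Adam5, a gene known from sperm, rose with probe set 162388_r_at from 1296 ± 344 to 2191 ± 108 (log2 0.75, adjusted p 0.0166), while its other probe set stayed at or below 128.2. Dropping wild type pool 1 (0.61, adjusted p 0.0637), wild type pool 3 (0.70, 0.0645) or LH transgenic pool 1 (0.74, 0.0553) ended this call. Adam3, the adjoining sperm gene, gave 613.6 ± 176.2 and 647.0 ± 222.7 with one probe set (log2 0.06, adjusted p 0.908).

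Adam15, a membrane-bound ADAM, fell from 1603 ± 69 to 778.7 ± 167.3. Its pools read 1561, 1565 and 1683 in wild type and 937.2, 795.2 and 603.8 in LH transgenic mice, with no overlap (2.06-fold lower, log2 -0.99, SE 0.17, limma adjusted p 0.00401). Adam12 and Adam19 are known from muscle and mesenchyme. Adam12 read 563.2, 430.4 and 555.8 in wild type, and 394.0, 153.6 and 96.2 in LH transgenic pools (log2 -1.14, SE 0.35, adjusted p 0.0435). It lost its call without any one of 5 pools, with adjusted p of 0.126, 0.0699 and 0.125 without wild type pools 1, 2 and 3 and of 0.108 and 0.0981 without LH transgenic pools 2 and 3. Its difference then lay between -1.25 and -0.84. With all pools its call was also lost with no filter (adjusted p 0.0852) and with a floor in place of the pseudocount (0.0529). Adam19 fell from 1163 ± 186 to 674.3 ± 132.8 (log2 -0.73, SE 0.18, adjusted p 0.0204) and lost its call without wild type pool 2 (-0.61, adjusted p 0.0784), wild type pool 3 (-0.78, 0.0508) or LH transgenic pool 2 (-0.64, 0.0586). Adam10, a general sheddase, had 2 probe sets with differences of 0.24 and -0.07, and Adam9 (-0.13) and Adam28 (0.18) were not called. Adam17, which releases EGF receptor ligands such as amphiregulin, read 125.0 to 329.6 in wild type and 209.6 to 255.8 in LH transgenic pools and was too dim to be tested, as was Adamts1.

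Of 11 tested serpin genes 5 fell and 1 rose. By probe set 6 of 13 were called (46.2%, against 21.3% of all tested), with 38.5% lower (against 10.8%) and 7.69% higher (against 10.5%). Serpinf1 (PEDF), a secreted serpin without protease inhibition that limits vessel growth and is made by fat cells, showed the largest fall of any tested member. It read 6264, 9066 and 9748 in wild type and 3701, 2084 and 3081 in LH transgenic pools, with no overlap (2.83-fold lower, log2 -1.49, SE 0.23, limma adjusted p 0.00231). A dimmer Serpinf1 probe set, 162429_r_at, had 393.3 ± 164.5 and 400.6 ± 67.3 (log2 0.07, adjusted p 0.892). Serpinf2, the main inhibitor of plasmin, is the gene directly beside it and rose with probe set 161916_r_at, from 800.7, 803.6 and 734.6 to 1242, 1127 and 1012 (log2 0.49, SE 0.15, adjusted p 0.0424). The second Serpinf2 probe set stayed at or below 69.7, and the call was lost without any one of 5 pools (adjusted p 0.0941, 0.0892 and 0.129 without wild type pools 1, 2 and 3, and 0.133 and 0.0846 without LH transgenic pools 1 and 2; log2 0.42 to 0.51).

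Serpina3n, a secreted acute phase inhibitor that blocks granzyme B and cathepsin G, fell with no overlap between groups, from 6181, 7220 and 7234 to 3953, 2984 and 3142 (2.05-fold lower, log2 -1.02, SE 0.14, limma adjusted p 0.00162). Serpinh1, the collagen chaperone Hsp47 of the endoplasmic reticulum, read 12974, 14133 and 15245 in wild type and 9131, 6671 and 6826 in LH transgenic pools (1.87-fold lower, log2 -0.91, SE 0.15, adjusted p 0.003). The groups did not overlap, and LH transgenic pool 1 was the highest of its group. Serpinb6a, an intracellular inhibitor, fell from 5691 ± 684 to 3325 ± 58 (log2 -0.75, SE 0.13, adjusted p 0.00411). The 3 LH transgenic pools of Serpinb6a lay between 3281 and 3391. Serpinb9, the intracellular inhibitor of granzyme B, had the weakest call of all members, from 1703 ± 160 to 1178 ± 194 (log2 -0.51, SE 0.16, adjusted p 0.0481). That call was lost whichever pool was left out, with adjusted p from 0.0519 (without LH transgenic pool 3) through 0.0576 (LH transgenic pool 1), 0.0775 (wild type pool 2), 0.111 (wild type pool 3) and 0.125 (LH transgenic pool 2) to 0.157 (wild type pool 1), and differences from -0.60 to -0.38.

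The other serpins tested were not called. Serping1, the C1 inhibitor, had 8076 ± 1651 and 5523 ± 1918, and LH transgenic pool 3 (7737) lay among the wild type pools (log2 -0.58, adjusted p 0.108). The antitrypsin genes of the Serpina1 family are near-identical copies that these probes may not separate. Their 4 probe sets annotated to 1 gene had differences of -0.44 (Serpina1b), -0.71 and 0.08 (Serpina1c) and -0.71 (Serpina1e), with adjusted p of 0.128, 0.0625, 0.81 and 0.0631. Serpinb5 (maspin), a marker of myoepithelium, read 454.7, 318.5 and 428.6 in wild type and 595.6, 542.1 and 344.4 in LH transgenic pools (log2 0.24, adjusted p 0.514). Summed over all 28 serpin probe sets the signal was 48730 to 56250 in wild type and 28597 to 34177 in LH transgenic pools, and the corresponding sums of the 20 cathepsin probe sets, 85150 to 99989 and 91353 to 125355, overlapped.

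Markers of stroma and fat were lower in the comparison that lowered Serpinh1, Serpinf1, Mmp14 and Timp3. Of 15 tested fibroblast and matrix genes 11 fell, with summed signals over 16 genes of 189657 to 244591 in wild type and 124408 to 152247 in LH transgenic pools. Of 12 adipocyte genes 10 fell, with sums of 172511 to 206031 and 90277 to 102237. None of these markers was at 0, and their part in the results was not tested. Skeletal muscle genes fell in 6 of 15. Their sum over 16 genes was 27835 and 32272 in LH transgenic pools 1 and 2 but 114292 in pool 3, near the wild type range of 122078 to 139933. With each array's level of muscle genes as a covariate, 3 members were called higher and 8 lower, 11 of the 20 calls above. Timp3 then had -0.50 (SE 0.17, adjusted p 0.0975), Plat -0.50 (SE 0.27, adjusted p 0.274), the probe set 95338_s_at of Mmp12 0.68 (SE 0.31, adjusted p 0.2) and Adam8 0.85 (SE 0.44, adjusted p 0.25). Adam19 (-0.85), Adam5 (0.83), Ctsh (0.52), Serpinb9 (-0.46) and Serpinf2 (0.34) also lost their calls there (adjusted p 0.0762, 0.0813, 0.077, 0.237 and 0.304). Of these, Adam19 and Adam5 had differences farther from 0 than without the covariate, with an SE of 0.26 each against 0.18. Other members remained called with differences farther from 0, among them Adam12 (-1.87, adjusted p 0.0223), Adam15 (-1.33, 0.00589), Ctsf (-1.13, 0.0194) and the probe set 95339_r_at of Mmp12 (1.45, 0.0446).

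**Figure D4:**
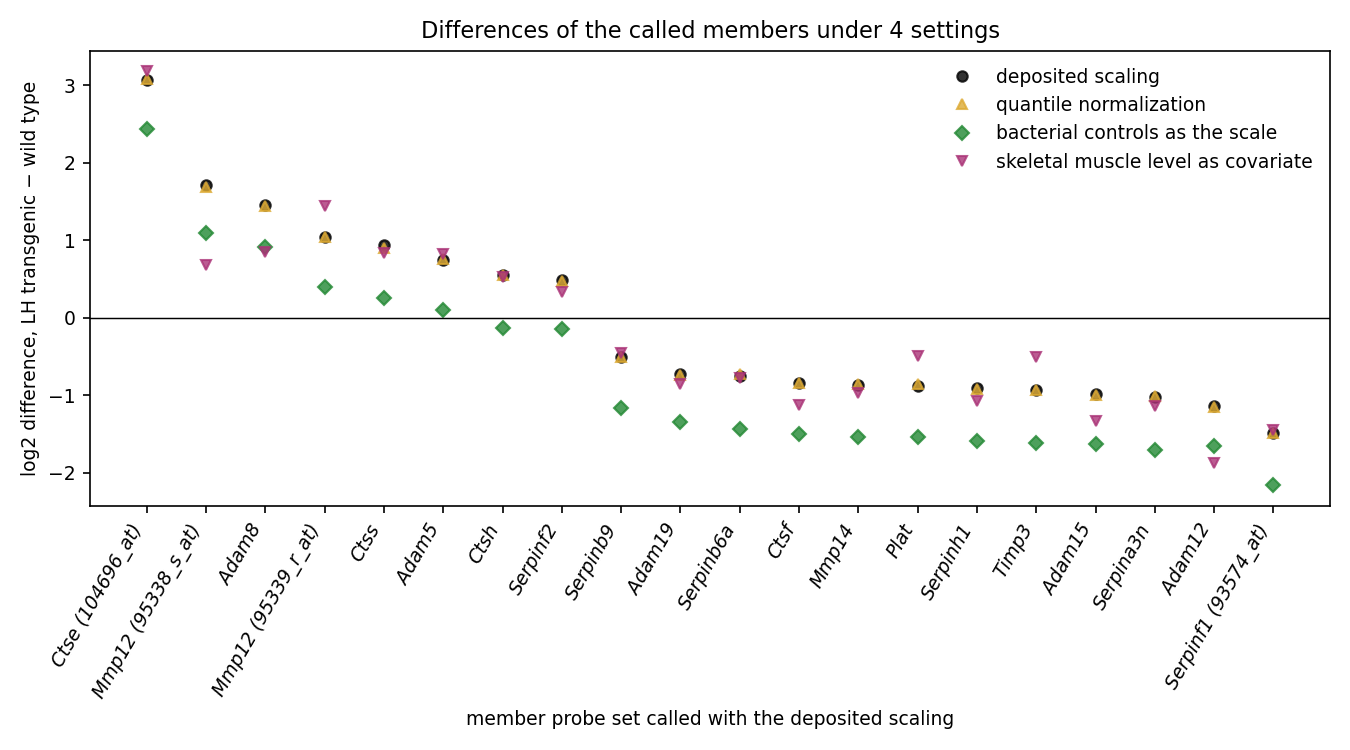
Log2 difference of the 20 called member probe sets with the deposited scaling, after quantile normalization, with the bacterial hybridisation controls as the scale, and with the muscle genes of each array as a covariate. The bacterial controls move all points down, and Ctsh and Serpinf2 then lie below 0.

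Genes of the same systems outside the symbol rule were counted in 6 lists, by gene. Over all probe sets tested 10.5% were called higher and 10.8% lower, and several of the counts below are small enough to lie near those shares. Of 7 tested genes for cathepsin inhibitors and lysosomal processing 2 rose, the cathepsin inhibitor Cstb (mean signal 12597 in wild type and 19665 in LH transgenic pools, log2 0.63, limma adjusted p 0.0182) and the sphingolipid activator Psap (0.62 and 1.21 with 2 probe sets, while another at 0.03 was not called), and none fell. Of 9 Kunitz, WAP-type and macroglobulin family inhibitors 3 rose. These were the milk-associated WAP-domain genes Wfdc12 (1.79) and Wfdc18 (0.77) and the epithelial inhibitor Spint1 (0.71). For Wfdc12, LH transgenic pools 1 and 2 read 9180 and 9038, but pool 3 read 2059, near the 1284 to 1741 of wild type. The inter-alpha-inhibitor chains Itih2 (-2.88) and Itih5 (-1.21) fell. Of 16 other serine proteases 1 rose, the epithelial enzyme Prss8 (0.96), and Htra1 (-1.12), the fibroblast enzyme Fap (-0.83) and Pcsk6 (-0.61) fell. Of 12 other zinc metallopeptidases 2 rose, Mep1b (1.13) and Ide (1.01, while a further tested probe set at -0.17 was not called), and 4 fell, led by Enpep (-2.20 with 1 of 2 tested probe sets), Cpe (-2.01 and -1.04) and Mme (-1.30). The fourth, Cpd, fell with one probe set (-0.71) and was not called with another (0.69). Mep1b passed the filter of 336.0 only through the LH transgenic pools (mean 582.7, against 233.0 in wild type). Its other probe set was too dim to be tested. Itih2, Mme and the Cpe probe set at -2.01 passed only through the wild type pools, with LH transgenic means of 65.6, 232.8 and 233.1. Of 5 tested granule protease genes Gzmb rose (1.14), and the mast cell genes Cma1 (-1.47) and Tpsb2 (-1.04) fell, though a further tested Tpsb2 probe set at 0.19 was not called. Of 17 genes for protease receptors, activators and clearance 7 fell and none rose, among them the plasminogen-binding pair Anxa2 (-1.16) and S100a10 (-1.01) and the thrombin receptor Thbd (-0.98). Further tested probe sets of S100a10 (-0.39) and Thbd (0.33, with every LH transgenic pool above every wild type pool) were not called.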

How the data were processed

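RNA from 6 pools was hybridised to 1 Affymetrix mouse array each. The authors deposited 1 linear signal intensity per probe set and array, which the submitters' processing notes credit to MAS5. Neither its version nor a genome build is given in the sources used here. All arrays were brought to a common trimmed mean, which hides a change shared by most genes.

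The platform annotation, which can be old, named 1 gene for 10833 of 12488 probe sets, several for 396 and none for 1193. A further 66 are control probe sets. Gene identifiers of 10817 were found in a GRCm38.p6 table, which changed 0 symbols. Promoter sequences and gene order are from RefSeq GRCm38.p6.

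The 20th percentile of all values (79.7) was added before log2, and probe sets with a mean at or above the 40th percentile of the means (336.0) were tested with limma (lmFit and eBayes with a trend, no covariate, two-sided), 7453 in all. The fit was tested on simulated data. The pools came from different mice. The members and gene lists were chosen with earlier results of these data known. Named genes are all called members, a list of well-known members whether called or not, and up to 3 called genes in each direction from each related protease list. Timp4, on that list, was not analysed here. Genes named for being near a threshold, for a second probe set or for gene order were chosen after their values were seen. Other settings were quantile normalization, the bacterial controls as the scale, a pseudocount of 324.3, a floor at 16.8, no filter, a stricter filter (933.0), no trend in eBayes, robust eBayes, the level of skeletal muscle genes as a covariate, and leaving out each pool. The number of arrays limits the precision. Fits used limma 3.58.1 and statmod 1.5.0 in R 4.3.3, and tables and plots used pandas 2.3.3, matplotlib 3.10.9 and numpy 2.4.6 in Python 3.11.15.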

Additional observations from a re-analysis of the deposited data

How the results depend on the processing

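With all pools, 781 probe sets were called higher and 805 lower, and 8 and 12 of the members. The bacterial hybridisation controls as the scale gave 140 and 3859, and 3 and 30 of the members. Ctsh (-0.14) and Serpinf2 (-0.15) turned below 0 there without a call, and Ctsb (-0.69 with probe set 94831_at) and Mmp3 (-0.62) were then called lower. Relative to the median of all probe sets on that scale, Ctsb lay at -0.07 and Mmp3 at 0.00, so these calls follow the shift of all probe sets. With muscle genes as a covariate, 373 and 447 were called, and 3 members higher. Leaving out 1 pool at a time gave 434 to 745 probe sets called higher and 507 to 896 lower, and 3 to 9 members higher and 8 to 12 lower. The 3 members called higher came without wild type pool 3. Quantile normalization, the other pseudocounts, the other filters and the other eBayes fits kept 16 to 20 of the 20 member calls. With no filter, Adam12, Serpinb9, Serpinf2 and the probe set 95339_r_at of Mmp12 lost theirs. The stricter filter left Adam8, Adam12 and Adam19 untested, and Serpinf2 was not called there. Called under all other settings in which they were tested were Ctse (104696_at), Mmp14, Ctsf, Adam15, Serpina3n, Serpinb6a, Serpinf1 (93574_at) and Serpinh1. For those called lower, the bacterial scale could hardly take the call away. No paired analysis was possible because the labels give the pools no shared replicate numbers. With 3 arrays per group, a missing call does not show that a level was the same.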

Other observations

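The 6 probe sets with a matching symbol that name several genes gave no call. A probe set shared by 5 Serpina1 genes (101575_i_at) read 907.3, 874.5 and 1244 in wild type and 551.7, 794.1 and 598.3 in LH transgenic pools (log2 -0.58, limma adjusted p 0.0618). One shared by 4 (93109_f_at) had a difference of -0.51 (adjusted p 0.126) and one shared by 3 (101572_f_at) of -0.09 (adjusted p 0.838). Those of Adam1a with Mapkapk5 and of the Serpinb9 copies did not exceed 413.2 and were not tested.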
